A study of Mus musculus with 3 samples.

Results

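The tumour necrosis factor (TNF) superfamily was examined in NMuMG cells, an epithelial line derived from the mouse mammary gland. Members were the genes whose single annotated symbol starts with Tnfsf (ligands) or Tnfrsf (receptors), together with Lta, Ltb, Eda, Ltbr, Cd40, Cd27, Ngfr, Edar and Relt. Tnfrsf10b was left out by the same rule. This gave 37 of the 19935 genes compared, 12 ligands and 25 receptors, and each was read by 1 probe set. The rule used names and no measured values, but it was chosen with earlier results of these data known. Tnfsf12 and Tnfsf13 share a probe set annotated to several genes and were not counted as members.

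Expression was measured on 3 Affymetrix arrays as log2 values after robust multi-array averaging (RMA). The MAFK group held 2 stable lines, clone 4 and clone 10, carrying the pCAGIP vector with FLAG-tagged MafK, with 1 array each (n = 2). The mock group held cells carrying pCAGIP without that insert (n = 1). MAFK belongs to the small MAF proteins, leucine zipper transcription factors that contain no transactivation domain. All cells were grown with serum and puromycin. Each MAFK line is a single clone while the mock cells carry no clone label, so the transgene and the cloning cannot be told apart. The p-values rest on the spread between these 2 different lines, in which clone and array differences cannot be told apart. Each line and mock was measured once, so the spread within a line or of mock is unknown. How the cultures and extractions were run is not stated in the labels.

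TNF superfamily ligands are mostly type II membrane proteins that act as trimers, on the cell surface or after shedding. Their receptors fall into those with a cytoplasmic death domain, those that bind TNF receptor-associated factors (TRAFs) without one, and decoys that bind ligand without passing on the usual signal. TRAF binding leads to NF-kB and MAP kinase signalling, while a death domain can also lead to caspase-8 activation. In the mammary gland the pair of RANKL (Tnfsf11) and RANK (Tnfrsf11a) drives growth of the milk-producing alveoli, and ectodysplasin (Eda) acts in early gland formation.

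No member lay past the 2-fold line in both clones, in either direction. Across all genes 1.19% lay at least 2-fold above mock in both clones (237) and 1.81% at least 2-fold below it (361). No member had a limma adjusted p under 0.05, against 1.16% of all genes (232). These 232 genes were all past the 2-fold line too, 0.401% of all genes higher and 0.762% lower. At an unadjusted limma p under 0.05, 10 members were apart, 6 higher and 4 lower, beside 17.5% of all genes. With the variance prior taken from all genes, limma called 7 members, 6 higher and 1 lower, beside 17.8% of all genes. They were Tnfrsf9, Tnfsf11, Cd40, Tnfrsf25, Tnfrsf13c and Tnfsf13b above mock and Tnfrsf21 below it. After a second quantile normalization limma called 4 members at any fold, Tnfrsf9, Tnfrsf13c, Tnfsf13b and Tnfrsf21, beside 2267 of all 19935 genes. The variance prior of that fit had an SD of 0.0056, against 0.0694 in the main fit, so smaller differences can pass. At a line of 1.5-fold in both clones Tnfrsf9 and Tnfsf18 were higher, beside 2.54% of all genes, and Tnfrsf21 and Tnfrsf22 were lower, beside 3.63%. A p that misses the threshold does not show that these genes were alike in the clones and mock, since mock was measured once and its spread is unknown.

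Equal RMA values were about as common among the members as among all genes. RMA's median polish over 3 arrays returns such ties for many probe sets, so a tie does not show equal transcript levels. Of the 37, 14 (37.8%) had the same value on all 3 arrays to within 1e-06, close to the 34.3% of all genes for which this held. Another 6 had the same value in both clones and a different one in mock. Both clones lay above mock for 15 members (40.5%) and below it for 5 (13.5%), beside 33.7% and 17.9% of all genes. These counts, and those by class given below, depend on how the arrays are centred. With median-centred arrays the members' median was -0.047 in each clone, and members now equal on all 3 arrays lay below mock. The remaining 3 members were above mock in clone 4 and equal to it or below it in clone 10. The median difference from mock was 0 in both clones, over the members and over all genes.

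The arrays matched the label of an epithelial line in part. The keratin gene Krt8 read 13.18 in clone 4 and 13.31 in clone 10, against 13.67 in mock, whereas Epcam, which encodes an epithelial adhesion molecule, read 5.58 on all 3 arrays. Of 10 epithelial markers 4 were above mock in both clones, 4 below and 1 equal on all arrays. The 1 that fell was the E-cadherin gene Cdh1, at 6.85 in clone 4 and 6.64 in clone 10, against 11.35 in mock (limma adjusted p = 0.0282). Krt18 was 1.93-fold lower without passing (limma adjusted p = 0.0972). The log2 values of the list summed to 81.8 in clone 4 and 81.7 in clone 10, against 87.2 in mock. Cdh1 alone differed by -4.50 in clone 4 and -4.71 in clone 10, most of this gap. Of 8 fibroblast markers 1 rose, Pdgfrb, at 9.95 in clone 4 and 10.30 in clone 10, against 6.78 in mock (limma adjusted p = 0.0461). Dcn read 5.76 in clone 4 and 6.06 in clone 10, against 7.88 in mock. On the RMA scale it was 3.91-fold lower without passing (limma adjusted p = 0.0711), with no detection call in the clones. The log2 values of that list summed to 56.7 and 57.1 in the clones, against 54.2 in mock. Pdgfrb alone differed by 3.17 in clone 4 and 3.52 in clone 10, more than the sum did. The 4 endothelial markers summed to 24.0 in each clone, against 23.9 in mock. The part of these marker differences in the members' values was not tested. Many superfamily genes are best known from lymphocytes and myeloid cells, so 7 immune markers were read beside them. These ran from 5.22 to 6.97 in clone 4 and from 5.13 to 6.97 in clone 10, against 5.10 to 6.84 in mock, and summed to 40.6 and 40.7 in the clones, against 40.2 in mock. The leukocyte marker Ptprc read 5.81 on all 3 arrays. RMA values have no zero and no detection calls were used, and probe sets differ in brightness per transcript, so levels of different genes are not compared.

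**Figure D1:**
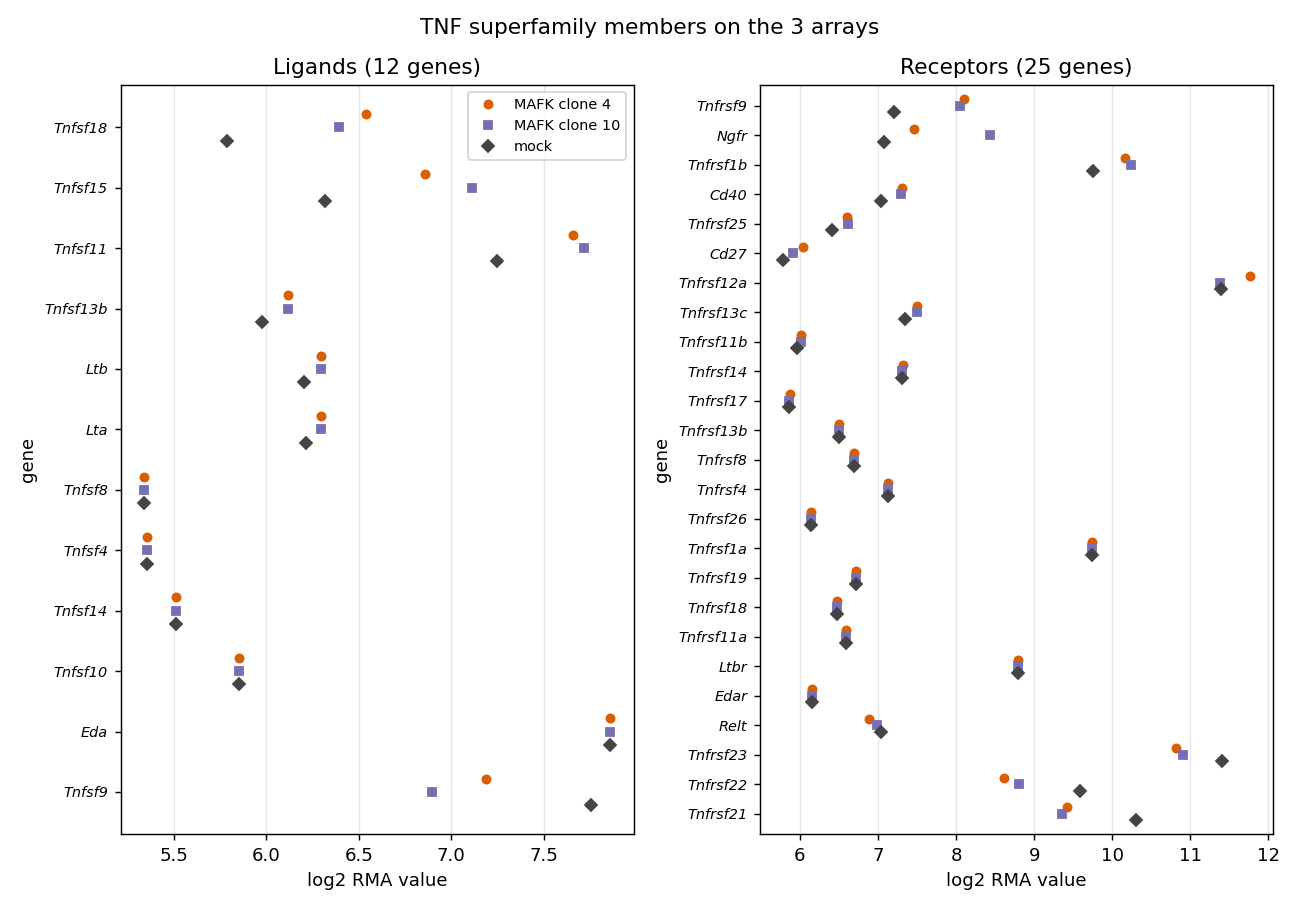
Log2 RMA value of each of the 12 ligand genes (left) and 25 receptor genes (right) in MAFK clone 4 (circles), MAFK clone 10 (squares) and mock (diamonds), 1 array each, ordered by the mean difference of the clones from mock. For 14 genes the symbols lie at the same value. Tnfrsf9, Tnfsf18 and Tnfsf15 show both clones to the right of mock, and Tnfrsf21, Tnfrsf22, Tnfrsf23 and Tnfsf9 show both to the left.

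Among the ligands, 6 were above mock in both clones, 1 was below and 5 were equal on all arrays. Tnfsf18, which encodes the ligand of the costimulatory receptor GITR, read 6.54 in clone 4 and 6.39 in clone 10, against 5.79 in mock. Both clones were higher, by 0.68 ± 0.10 (SE) as a log2 difference or 1.60-fold (limma adjusted p = 0.133). All of these Tnfsf18 values lay below the median of all values (6.91), with no detection call. The fold thus describes RMA values and not a transcript ratio. Tnfsf15, the gene of the DR3 ligand TL1A, read 6.86 in clone 4 and 7.11 in clone 10, against 6.32 in mock. The mean difference was 0.67 ± 0.15 (SE), with a limma adjusted p of 0.197. For both genes the clones lay above mock, and neither passed.

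Tnfsf11, the gene of RANKL, read 7.66 in clone 4 and 7.72 in clone 10, against 7.25 in mock. This is a 1.36-fold higher mean with MAFK (limma adjusted p = 0.150). Its receptor gene Tnfrsf11a read 6.59 on all 3 arrays. Tnfrsf11b, which encodes osteoprotegerin, the soluble decoy that binds RANKL, read 6.01 in both clones, against 5.97 in mock. Both clones were above mock for the ligand, whereas its receptor was equal on all arrays and its decoy differed by 0.04 on the log2 scale.

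Tnfsf9, the gene of 4-1BB ligand, was the 1 ligand below mock in both clones. It read 7.19 in clone 4 and 6.90 in clone 10, against 7.75 in mock, with a log2 difference of -0.71 ± 0.16 (SE, limma adjusted p = 0.205). Its receptor gene, Tnfrsf9, lay on the other side of mock, at 8.10 in clone 4 and 8.05 in clone 10, against 7.21 in mock. Tnfrsf9 encodes 4-1BB (CD137), a costimulatory receptor that signals through TRAF1 and TRAF2. It was 1.83-fold higher, by 0.87 ± 0.07 (SE), with a limma adjusted p of 0.0704. With the prior from all genes this p was 0.0268, and after a second quantile normalization it was 0.0455.

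The other ligands differed little. The B cell survival factor gene Tnfsf13b (BAFF) read 6.12 in both clones, against 5.98 in mock. The lymphotoxin genes Lta and Ltb each read 6.30 in both clones, against 6.22 and 6.20 in mock. These 3 genes had no measured spread between the clones, and none passed limma (adjusted p of 0.521, 0.874 and 0.775). Tnfsf13b passed with the prior from all genes (limma adjusted p = 0.0373) and after a second quantile normalization. The 5 ligands equal on all arrays were Eda at 7.86, the TRAIL gene Tnfsf10 at 5.86, the LIGHT gene Tnfsf14 at 5.51, the OX40 ligand gene Tnfsf4 at 5.36 and the CD30 ligand gene Tnfsf8 at 5.34.

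Of the 5 receptors with a death domain, 2 were above mock in both clones, 1 was below and 2 were equal on all arrays. The 1 below was Tnfrsf21, the gene of death receptor 6 (DR6) and the member nearest to the 2-fold line by the smaller of its differences. Its level was 9.42 in clone 4 and 9.36 in clone 10, against 10.30 in mock, so both clones were below mock and close to each other. The log2 difference was -0.88 in clone 4 and -0.94 in clone 10, and the mean was 1.88-fold lower (-0.91 ± 0.08 SE, limma adjusted p = 0.0695). It was 0.0288 with the prior from all genes and 0.0448 after a second quantile normalization, and the difference stayed under 2-fold in both settings.

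Ngfr, which encodes the neurotrophin receptor p75 and is a marker of basal mammary cells, was the 1 member past the 2-fold line in a single clone. It read 7.47 in clone 4 and 8.44 in clone 10, against 7.08 in mock. The difference was 1.35 in clone 10 and 0.38 in clone 4, and the limma adjusted p for the mean was 0.594. Among all genes, 3.59% lay past that line in clone 10 and 3.78% in clone 4. The TNF receptor gene Tnfrsf1a (TNFR1) read 9.74 and the ectodysplasin receptor gene Edar 6.16 on all 3 arrays. Tnfrsf25, the gene of the TL1A receptor DR3, read 6.60 in clone 4 and 6.62 in clone 10, against 6.41 in mock (limma adjusted p = 0.339).

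**Figure D2:**
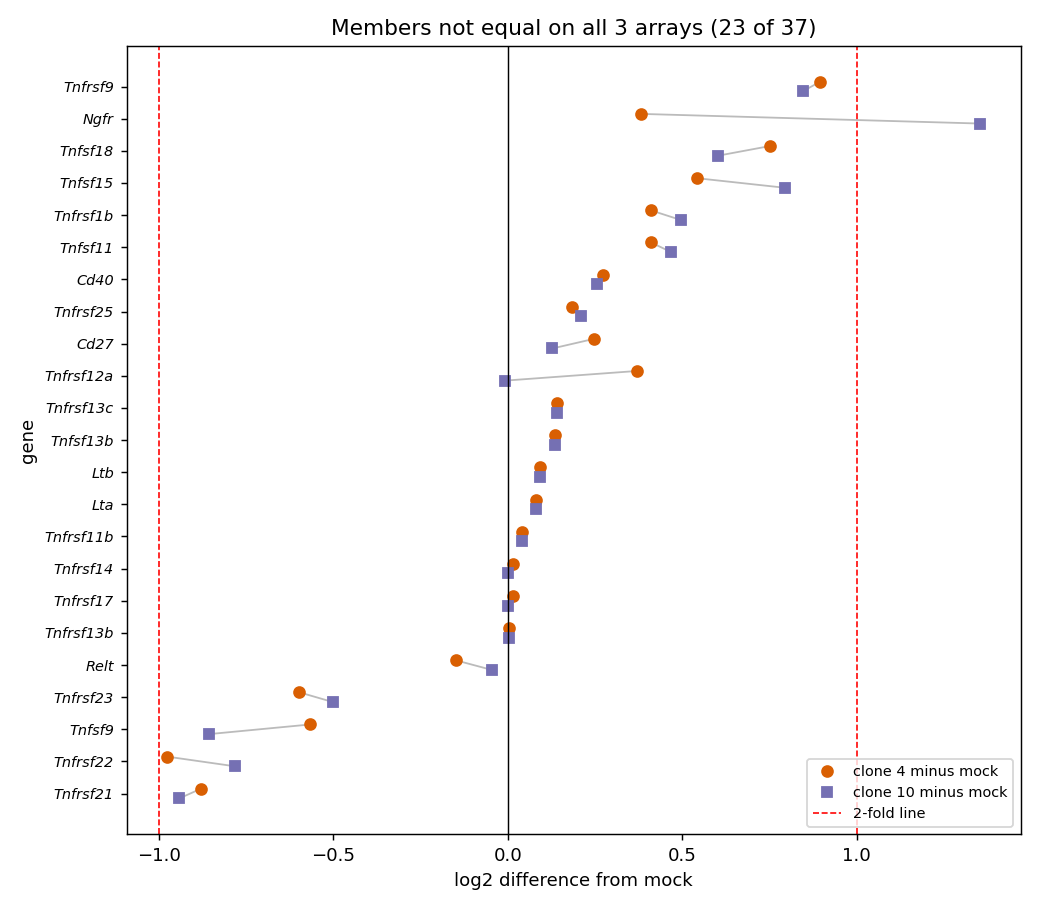
Log2 difference from mock of the 23 members that were not equal on all 3 arrays, in clone 4 (circles) and clone 10 (squares), joined by a grey line; dashed lines mark 2-fold. Ngfr in clone 10 is the 1 point beyond a dashed line, and it and Tnfrsf12a show the widest gaps between the clones.

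The TRAF-binding receptors numbered 16, of which 6 were above mock in both clones, 1 was below and 6 were equal on all arrays. Besides Tnfrsf9, the second TNF receptor gene Tnfrsf1b (TNFR2) was higher in both clones. It read 10.16 in clone 4 and 10.25 in clone 10, against 9.75 in mock, a mean of 1.37-fold higher (0.45 ± 0.08 SE on the log2 scale, limma adjusted p = 0.159). Cd40, a receptor known for activating antigen-presenting cells and also found on epithelia, read 7.31 in clone 4 and 7.30 in clone 10, against 7.04 in mock (limma adjusted p = 0.239). Tnfrsf1b thus differed from mock by 0.41 in clone 4 and 0.50 in clone 10, beside a difference of 0 for Tnfrsf1a, and the gap between these genes was not tested.

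Tnfrsf12a, which encodes Fn14, the receptor of the cytokine TWEAK, was at 11.76 in clone 4 and 11.38 in clone 10, against 11.39 in mock. Clone 4 alone was above mock, and the clones differed by 1.30-fold. The remaining receptors of this class differed from mock by at most 0.25 in either clone. The lymphotoxin beta receptor gene Ltbr read 8.79 on all 3 arrays. Tnfrsf4 (OX40) at 7.13, Tnfrsf8 (CD30) at 6.69, Tnfrsf19 (TROY) at 6.72, Tnfrsf18 (GITR) at 6.48 and Tnfrsf11a were also equal on all arrays. The GITR ligand gene Tnfsf18 was above mock in both clones, as given above, while its receptor gene was among these.

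Receptors of the B cell factors BAFF and APRIL were near mock. The BAFF receptor gene Tnfrsf13c read 7.49 in both clones, against 7.35 in mock. The TACI gene Tnfrsf13b read 6.50 in both clones and in mock. The BCMA gene Tnfrsf17 read 5.88 in clone 4 and 5.86 in clone 10, against 5.86 in mock. The T cell costimulatory gene Cd27 read 6.04 in clone 4 and 5.92 in clone 10, against 5.79 in mock. The herpesvirus entry mediator gene Tnfrsf14 read 7.32 and 7.31 in the clones, against 7.31 in mock. Relt was the 1 TRAF-binding receptor below mock in both clones, at 6.89 in clone 4 and 6.99 in clone 10, against 7.04 in mock. None of these 6 genes passed limma, but Tnfrsf13c did so with the prior from all genes (limma adjusted p = 0.0360) and after a second quantile normalization.

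The decoy receptors include 2 genes known in the mouse, Tnfrsf22 and Tnfrsf23, whose products bind TRAIL and lack a death domain. Tnfrsf22 read 8.61 in clone 4 and 8.81 in clone 10, against 9.59 in mock, a mean of 1.84-fold lower (-0.88 ± 0.12 SE on the log2 scale, limma adjusted p = 0.119). Tnfrsf23 read 10.81 in clone 4 and 10.91 in clone 10, against 11.41 in mock, a mean of 1.46-fold lower (limma adjusted p = 0.136). Both genes were below mock in both clones, and neither passed. The TRAIL gene Tnfsf10 had a tied value on all 3 arrays, as given above, and the related receptor gene Tnfrsf26 read 6.15 on all 3.

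Several members lie side by side in the genome, and some neighbours shared a direction while others did not. By gene order in assembly GRCm38.p6, Tnfrsf26, Tnfrsf22 and Tnfrsf23 are adjacent on chromosome 7, with no other coding gene between them. Tnfrsf22 and Tnfrsf23 were both below mock in each clone while Tnfrsf26 was equal on all arrays. On chromosome 4, Tnfsf15 adjoins Tnfsf8 and Tnfrsf1b adjoins Tnfrsf8. In each of these pairs the first gene was above mock in both clones and the second was equal. On chromosome 1, Tnfsf18 lies between Tnfsf4 and Fasl, both equal on all arrays. The adjacent genes Ltb, Tnf and Lta on chromosome 17 were each slightly above mock in both clones, by 0.09, 0.17 and 0.08 on the log2 scale. None of them passed limma, each had equal values in the clones, and all read below the median of all values (6.91). Elsewhere on chromosome 17, Tnfsf9 was below mock while its neighbour Cd70 read 5.90 in both clones, against 5.79 in mock.

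**Figure D3:**
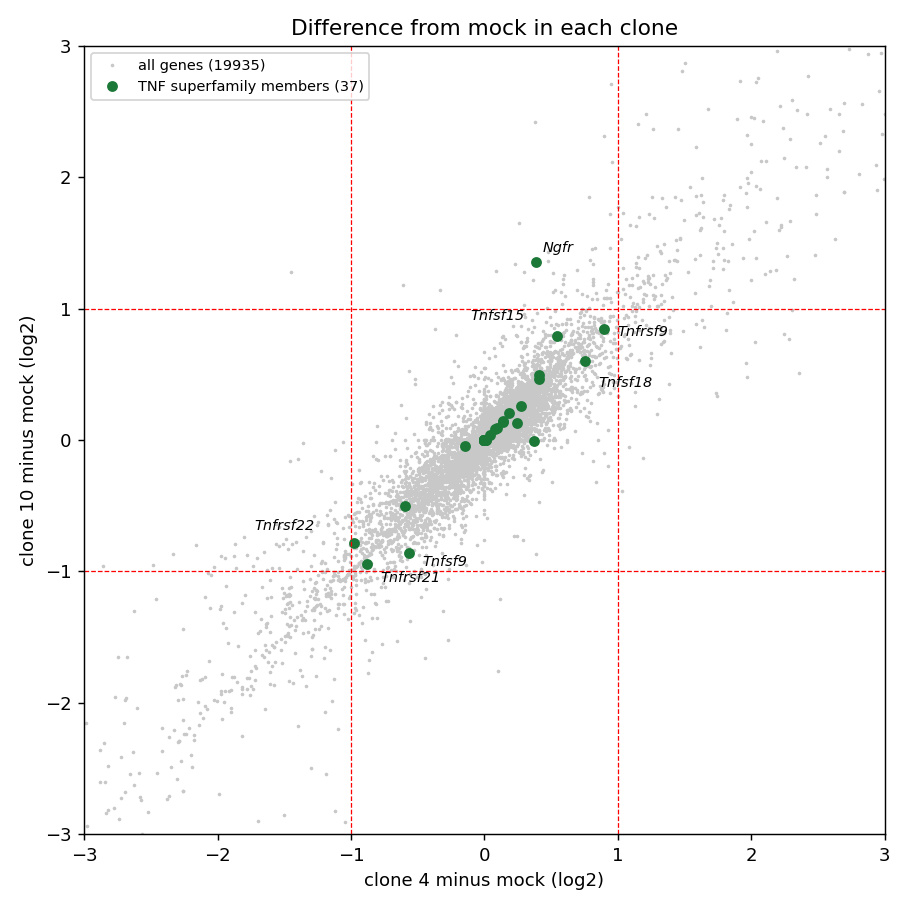
Log2 difference from mock in clone 4 (x axis) and clone 10 (y axis) for all 19935 genes (grey) and the 37 superfamily members (green); both axes share the mock array, and 98 genes beyond 3 on either axis are not shown. All 37 members lie within the dashed 2-fold lines except Ngfr, which crosses the line in clone 10.

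The clones were close to each other for most members. No member was at least 2-fold apart between clone 10 and clone 4, beside 0.441% of all genes. Ngfr came nearest, with clone 10 1.96-fold higher than clone 4, and was the 1 member past 1.5-fold, beside 1.46% of all genes. Tnfrsf12a and Tnfsf9 were next, with clone 10 lower than clone 4 by 1.30-fold and 1.22-fold. With 1 array per clone these differences have no replicate check.

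The promoters of the members past the 1.5-fold line in both clones are shown because these genes came nearest to the 2-fold line. RefSeq sequences of assembly GRCm38.p6, 250 bases before to 50 bases from the transcript start, were available for Tnfrsf21, Tnfsf18 and Tnfrsf9, the last with 2 annotated starts. Each is written 5′ to 3′ on the gene's strand, and capitals mark matches on either strand to TGANTCA (AP-1), TGCTGA (a MAF-type motif) or TGACNNNGC (the antioxidant response core), where N is any base. TGCTGA and TGANTCA can overlap in a full MAF recognition element.
Tnfrsf21, chr17:43016305-43016604, plus strand: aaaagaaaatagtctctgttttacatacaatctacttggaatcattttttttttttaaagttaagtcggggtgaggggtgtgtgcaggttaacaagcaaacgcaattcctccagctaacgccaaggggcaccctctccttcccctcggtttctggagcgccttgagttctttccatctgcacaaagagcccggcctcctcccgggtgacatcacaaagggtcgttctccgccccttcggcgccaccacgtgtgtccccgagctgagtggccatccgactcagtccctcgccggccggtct
Tnfrsf9 (first start), chr4:150919905-150920204, plus strand: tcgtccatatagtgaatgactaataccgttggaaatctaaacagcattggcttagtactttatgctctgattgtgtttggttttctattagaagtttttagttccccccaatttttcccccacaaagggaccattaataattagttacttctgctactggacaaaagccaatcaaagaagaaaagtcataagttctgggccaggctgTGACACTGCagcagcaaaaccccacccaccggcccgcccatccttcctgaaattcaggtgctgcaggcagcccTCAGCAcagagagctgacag
Tnfrsf9 (other start), chr4:150927749-150928048, plus strand: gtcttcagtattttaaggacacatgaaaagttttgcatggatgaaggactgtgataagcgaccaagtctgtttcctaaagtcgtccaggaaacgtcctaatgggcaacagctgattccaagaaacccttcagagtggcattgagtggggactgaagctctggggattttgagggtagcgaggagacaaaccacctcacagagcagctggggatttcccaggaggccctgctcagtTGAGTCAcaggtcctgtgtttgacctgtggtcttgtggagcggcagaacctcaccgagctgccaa
Tnfsf18, chr1:161494407-161494706, plus strand: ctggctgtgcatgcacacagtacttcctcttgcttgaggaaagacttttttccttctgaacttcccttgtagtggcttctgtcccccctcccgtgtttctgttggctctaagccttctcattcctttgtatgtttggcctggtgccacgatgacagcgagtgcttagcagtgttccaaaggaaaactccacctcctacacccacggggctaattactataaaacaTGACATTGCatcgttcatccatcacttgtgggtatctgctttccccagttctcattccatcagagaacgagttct

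The 2 Tnfrsf9 promoters held 1 TGCTGA match, 1 TGACNNNGC match and 1 TGANTCA match, Tnfsf18 held 1 TGACNNNGC match and Tnfrsf21 held none of the 3 motifs. Among all 32851 promoter windows of this length, 19.5% held TGCTGA, 12.4% TGACNNNGC and 7.81% TGANTCA. Windows could be matched for 31 members. Of their 35 windows, 7 held TGACNNNGC, 5 TGCTGA and 5 TGANTCA. Counted by gene, these were 7, 5 and 4 members. A match describes letters in a short window and is not evidence of binding.

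Values of Tnfrsf10b, Tnfsf12 and Tnfsf13 are not reported here. Among other superfamily genes outside the naming rule, 6 were read as a separate list. Of these, Eda2r, the X-linked gene of a receptor for an ectodysplasin isoform and a target of p53, fell in the clones, to 5.50 in clone 4 and 5.51 in clone 10, against 8.32 in mock (7.06-fold on the RMA scale, with no detection call in the clones, limma adjusted p = 0.0256). The death receptor gene Fas read 7.69 in clone 4 and 7.60 in clone 10, against 8.37 in mock (1.65-fold lower, limma adjusted p = 0.0949). Tnf itself read 6.46 in both clones, against 6.29 in mock (limma adjusted p = 0.392). Fasl was equal on all arrays at 5.84, and Cd40lg read 5.09 on all 3. Eda2r was the 1 gene of this list past limma or the 2-fold line in the main fit, beside 1.81% of all genes at least 2-fold lower. With the prior from all genes 4 of the 6 passed limma, beside 17.8% of all genes. The 3 besides Eda2r were Tnf, Fas and Cd70 (limma adjusted p of 0.0314, 0.0408 and 0.0464). Fas was also past 1.5-fold in both clones.

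Of 34 measured adaptor and kinase genes downstream of the receptors, 1 was at least 2-fold higher in both clones, none was lower, and none passed limma (12 at an unadjusted p under 0.05, 8 past limma with the prior from all genes). Of all genes, 1.19% lay past the 2-fold line above mock in each clone and 1.81% below it. For limma, 17.5% of all genes had an unadjusted p under 0.05, and 17.8% passed with the prior from all genes. Traf1, an adaptor that joins TRAF2 at 4-1BB and TNFR2, read 7.72 in clone 4 and 7.52 in clone 10, against 5.92 in mock. It was 3.24-fold higher (1.69 ± 0.12 SE, limma adjusted p = 0.0605, or 0.0413 with the prior from all genes). The mock value of Traf1 was below the median of all values (6.91), with no detection call. This fold thus describes RMA values and not a transcript ratio. Traf2 read 9.62 in clone 4 and 9.78 in clone 10, against 8.83 in mock (1.82-fold higher, limma adjusted p = 0.103). The deubiquitinase gene Cyld and the TRAF-binding inhibitor gene Tank were 1.79-fold and 1.66-fold higher, and the kinase subunit gene Ikbkg was 1.70-fold lower, none passing. The death domain adaptor gene Fadd was equal on all arrays at 8.55, Tradd read 8.12 and 8.08 in the clones, against 8.14 in mock, and Casp8 read 10.97 in both clones, against 11.24 in mock. Ripk1, Traf3 and Chuk were not analysed here.

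None of 5 shedding genes was 2-fold apart in both clones or passed limma. At an unadjusted limma p under 0.05, 2 were apart, beside 17.5% of all genes. With the prior from all genes 1 passed limma, beside 17.8%. Adam17, the protease that releases TNF and several of its receptors, read 9.24 in clone 4 and 9.38 in clone 10, against 9.64 in mock (limma adjusted p = 0.271). Of 29 NF-kB subunit and target genes, 1 was at least 2-fold higher in both clones, Traf1 again, and 7 were lower. The shares of all genes were 1.19% higher and 1.81% lower. The chemokine genes Cxcl5 and Ccl20, the acute-phase gene Saa3 and the cyclooxygenase gene Ptgs2 fell, by 43.3-fold, 12.1-fold, 12.8-fold and 11.0-fold. In the clones Cxcl5 read 5.62 and 5.66 and Saa3 5.62 and 5.56, with no detection call, so these folds describe RMA values and not transcript ratios. Vcam1, Cxcl10 and Cxcl1 were lower by 13.8-fold, 3.14-fold and 2.49-fold without passing. The same limit holds for Vcam1, which read 6.32 in clone 4 and 6.80 in clone 10, against 10.35 in mock. Lcn2, the gene of lipocalin 2, read 12.19 in clone 4 and 10.90 in clone 10, against 10.16 in mock, past 2-fold in clone 4 alone (limma adjusted p = 0.478). With Lcn2, 21 genes, among them Nfkbia (9.58 in clone 4 and 9.53 in clone 10, against 9.56 in mock) and Rela (10.77 in clone 4 and 10.58 in clone 10, against 10.44 in mock), were not 2-fold apart in both clones. The median difference of this list was 0 in both clones. At an unadjusted limma p under 0.05, 9 genes were apart, beside 17.5% of all genes. With the prior from all genes 9 passed limma, beside 17.8%. The lists of adaptors and of NF-kB genes share Traf1, Birc3 and Tnfaip3.

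**Figure D4:**
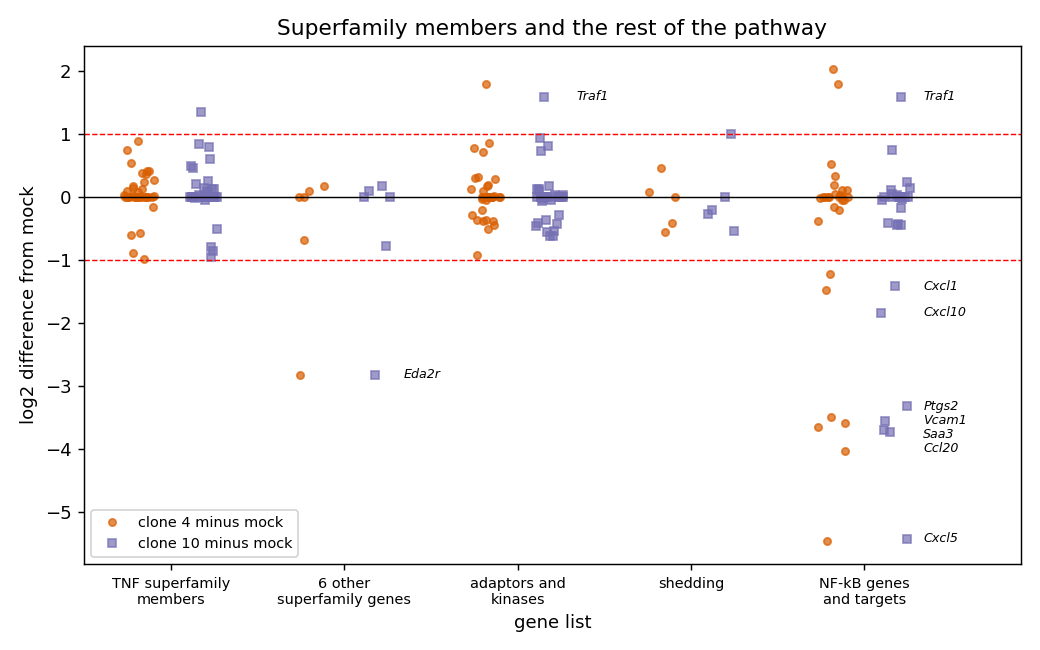
Log2 difference from mock of each gene in clone 4 (circles) and clone 10 (squares) for the 37 superfamily members and 4 lists of other pathway genes; dashed lines mark 2-fold, side-to-side scatter within a column carries no value, and names mark genes past 2-fold in each clone. No superfamily member is named, Traf1 appears in 2 lists, and 7 NF-kB genes lie below the lower dashed line in both clones.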

How the data were processed

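The authors deposited log2 values per probe set, produced with RMA as the submitters' processing notes state; version, filters, genome build and any pooling are not given in the sources used here. RMA's median polish over 3 arrays returns equal values for many probe sets (35.9%). Array medians were 6.92 in clone 4, 6.93 in clone 10 and 6.89 in mock, and the number of arrays limits the precision.

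Of 28815 probe sets, 21780 had 1 gene symbol in the platform's annotation, updated by Entrez identifier from a RefSeq table of GRCm38.p6 (21689 matched). The probe set with the highest mean stood for each of 19935 genes.

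The test was limma 3.58.1 in R 4.3.3 on all 3 arrays (two-sided, Benjamini-Hochberg over all genes), leaving 1 residual degree of freedom per gene and taking the spread of mock to be that of the clones. Its variance prior (1.93 degrees of freedom, SD 0.0694) came from 8873 genes with unequal clones. Genes equal in the clones entered with a variance of 0 (SE 0.0690), which favours passing. "Rose" and "fell" mean 2-fold apart in both clones and past limma, and fold is 2 to the power of a log2 difference. The script was tested on simulated data.

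Members and lists were chosen with earlier results of these data known. Members 2-fold apart in a clone, the 8 with the highest mean and the pair nearest to the 2-fold line were named by rule, and the others were added so that all are accounted for. Alternatives were the prior, an intensity trend, normalization, a filter on low values, the probe set rule, the fold line and leaving out a clone.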

Additional observations from a re-analysis of the deposited data

How the results depend on the processing

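No superfamily member passed both limma and the 2-fold line with a second quantile normalization or with median-centred arrays. The same held for the prior from all genes, an intensity trend, low genes left out (18 members remained) and the mean of probe sets. There it was fixed in advance, since these settings leave each member's fold unchanged and none was past 2-fold in both clones. At the 1.5-fold line no member could pass both, since none passed limma in the main fit. The count of all genes past both was 232, and 360 with the prior from all genes, which includes the tied variances. At 1.5-fold, 1230 genes, 4 members and 15 pathway genes (main count 9) were apart from mock in both clones, and 1 member was apart between the clones. Leaving out a clone gave 0 to 1 members at least 2-fold apart from mock, the 1 being Ngfr without clone 4. The Tnfrsf12a difference was -0.0080 without clone 4 and 0.37 without clone 10. The members' median was -0.0092 in clone 4 and -0.0076 in clone 10 after a second quantile normalization, -0.047 in each with median-centred arrays, and 0.0075 in clone 4 without low genes. With median-centred arrays the tied genes Eda, Ltbr and Tnfrsf1a moved by the same -0.047 as the members' median. Without low genes the median was taken over the 18 members that remained, whose differences were unchanged. The cause of the shift after a second quantile normalization was not tested. Tnfrsf21, Tnfrsf9, Tnfrsf13c and Tnfsf13b passed limma, at under 2-fold, with the prior from all genes and after a second quantile normalization, as did Cd40, Tnfrsf25 and Tnfsf11 with that prior alone; 2267 genes passed at any fold after the second normalization. Values without a clone have no test, since no residual degree of freedom is left. No paired analysis was possible because mock was measured once and the groups share no replicate numbers.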
